A study of Mus musculus with 16 samples.

Results

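The transcripts of 7 genes that are abundant in neutrophils or their precursors, S100a8, S100a9, Ngp, Camp, Retnlg, Mpo and Wfdc21, were followed through RNAseq of mouse hepatic stellate cells (HSCs). The members were chosen by their group levels and changes in the same deposited tables, so their changes are given as a description and none was tested. All 7 had a row among 5716 in the comparison of quiescent cells, 5 among 231 in GFP-high and 4 among 568 in GFP-intermediate activated cells, of 6193 distinct row names in all. Quiescent HSCs (qHSCs) came from 3 uninjured WT1CreERT2;Ai14 animals after weaning, which per the methods carried Cre at 1 WT1 allele, after tamoxifen at E10.5, and were sorted into 3 lineage label (RFP)-positive and 3 label-negative samples. Activated HSCs (aHSCs) came from adult animals injured for 8 weeks with carbon tetrachloride. Their controls were PDGFRbCre;WT1_+_GFP;Ai14 and the WT1-deleted animals PDGFRbCre;WT1_fl_GFP;Ai14, so every aHSC group carried constitutive Cre, the tdTomato reporter and a GFP knockin at 1 WT1 allele, and the controls had 1 intact allele. RFP-positive aHSCs were sorted into a GFP-high fraction, with 3 control and 3 WT1-deleted samples, and a GFP-intermediate fraction, called low in the labels, with 2 and 2. The labels give all 16 samples as C57/Bl6 and male, whereas the methods describe the qHSC animals as female, and 1 GFP-intermediate control sample was a pool of 2 animals.

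For every row the deposited tables give the authors' FPKM (fragments per kilobase of transcript, relative to the sequenced fragments) of a whole group. Samples of a group had been combined, so no value per sample, no depth and no spread between animals can be given. No group difference below was thus checked against replicates here, and the authors' p-values and q-values were not used. Only genes that passed the authors' adjusted p-value threshold have a named row, and 108 rows of the GFP-high and 149 of the GFP-intermediate table are loci without a gene name. A gene without a row was not listed in that comparison, which says nothing of its level. In sorted bulk samples, fewer cells of a kind and less RNA in each of them cannot be told apart.

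Neutrophils are short-lived phagocytes made in the bone marrow and recruited to injured liver from the blood. Their granules are filled in sequence during maturation. Azurophil granules, with myeloperoxidase, are made first, in promyelocytes, specific granules, with cathelicidin, NGP and lactoferrin, follow in myelocytes, and gelatinase granules come last. S100A8 and S100A9 pair to form calprotectin, a calcium- and zinc-binding complex that fills the cytosol of neutrophils and of some monocytes. Once released it acts as an alarmin, a signal of cell damage, through Toll-like receptor 4.

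S100a8 and S100a9 are neighbours on chromosome 3, with 0 other RefSeq genes starting between them, and they were the most abundant members with a row in all 6 groups. Their promoters (250 bases before to 50 after the start, RefSeq, GRCm38.p6) are shown because the levels of both genes moved together in every comparison, and that of Ngp because it holds the largest number of C/EBP-like matches among the members. C/EBP and PU.1 are the transcription factor families best known for granulocyte genes. Capitals mark matches on either strand to TTGCNNAA (C/EBP-like), AGGAAGT (PU.1-like) and TATAAA.
S100a8, chr3:90668821-90669120, plus strand: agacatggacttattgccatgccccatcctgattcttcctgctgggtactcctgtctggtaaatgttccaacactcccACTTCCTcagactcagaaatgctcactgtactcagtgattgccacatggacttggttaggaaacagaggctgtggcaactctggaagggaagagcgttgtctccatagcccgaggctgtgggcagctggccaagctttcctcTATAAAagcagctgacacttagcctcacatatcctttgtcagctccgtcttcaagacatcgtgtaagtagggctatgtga
S100a9, chr3:90695672-90695971, minus strand: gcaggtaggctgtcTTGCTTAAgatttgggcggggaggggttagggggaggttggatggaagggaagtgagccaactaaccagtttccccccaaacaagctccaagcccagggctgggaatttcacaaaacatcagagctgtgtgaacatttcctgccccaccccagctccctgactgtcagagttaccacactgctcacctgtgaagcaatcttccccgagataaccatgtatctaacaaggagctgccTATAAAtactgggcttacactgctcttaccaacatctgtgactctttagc
Ngp, chr9:110419558-110419857, plus strand: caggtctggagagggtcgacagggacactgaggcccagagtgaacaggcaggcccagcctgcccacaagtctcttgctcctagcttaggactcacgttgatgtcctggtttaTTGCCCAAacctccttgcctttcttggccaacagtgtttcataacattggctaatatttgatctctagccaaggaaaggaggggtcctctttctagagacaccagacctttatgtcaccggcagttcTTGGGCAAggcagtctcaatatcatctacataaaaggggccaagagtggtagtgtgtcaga

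In the S100a8 promoter the PU.1-like match began 172 bases and TATAAA 30 bases before the start. The S100a9 promoter held a C/EBP-like match 236 bases before the start and TATAAA at the start itself. Ngp held C/EBP-like matches 138 and 11 bases before the start. Of the 6 members with a RefSeq promoter, 3 held the C/EBP-like, 2 the PU.1-like and 2 the TATA letters, against 10.8%, 9.35% and 13.6% of all 32851 promoters. The other C/EBP-like match was in Retnlg and the other PU.1-like match in Mpo, and the Camp promoter had 0 matches to the 3 motifs. These matches are letters in a window and not binding sites. No binding was measured here.

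Both calprotectin genes were lower in label-positive than in label-negative qHSCs. S100a8 had an FPKM of 757 in label-negative against 158 in label-positive cells, with a log2 ratio of -2.26. S100a9 had 1147 and 236, a log2 ratio of -2.28. The differences were close to equal, 4.80-fold and 4.86-fold. In label-negative cells S100a9 ranked 31st and S100a8 59th by FPKM among the 5716 rows, and in label-positive cells they ranked 201st and 335th.

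Retnlg, which encodes a resistin-like protein secreted by granulocytes, had an FPKM of 243 in label-negative against 30.4 in label-positive qHSCs, a log2 ratio of -3.00. Wfdc21 encodes a small protein with a whey acidic protein domain and went the other way. Its FPKM was 23.1 in label-negative against 74.0 in label-positive cells, with a log2 ratio of 1.68. It was the 1 member higher in label-positive cells, at a level above that of Retnlg there.

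Among the granule proteins, Mpo, the peroxidase of azurophil granules, had an FPKM of 6.18 in label-negative against 0.0812 in label-positive qHSCs, and its log2 ratio of -6.25 was the second lowest among the 5584 rows that exceed 0 in both groups. That ratio rests on a level far below 1 in label-positive cells. Ngp, the neutrophilic granule protein, had 8.58 and 1.50, a log2 ratio of -2.52. Camp, which encodes the cathelicidin precursor, had 2.32 and 0.584, a log2 ratio of -1.99. In both fractions the FPKM of each of these 3 granule genes was far below that of S100a8.

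Of the 7 members 6 were at least 2-fold lower in label-positive qHSCs, where 42.4% of the 5584 rows were, and 1 was at least 2-fold higher, where 38.4% of the rows were. The median log2 ratio was -2.28 for the members and 0.64 for the 5584 rows. These shares describe the table, and nothing is read from them, because the members were picked from it.

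**Figure D1:**
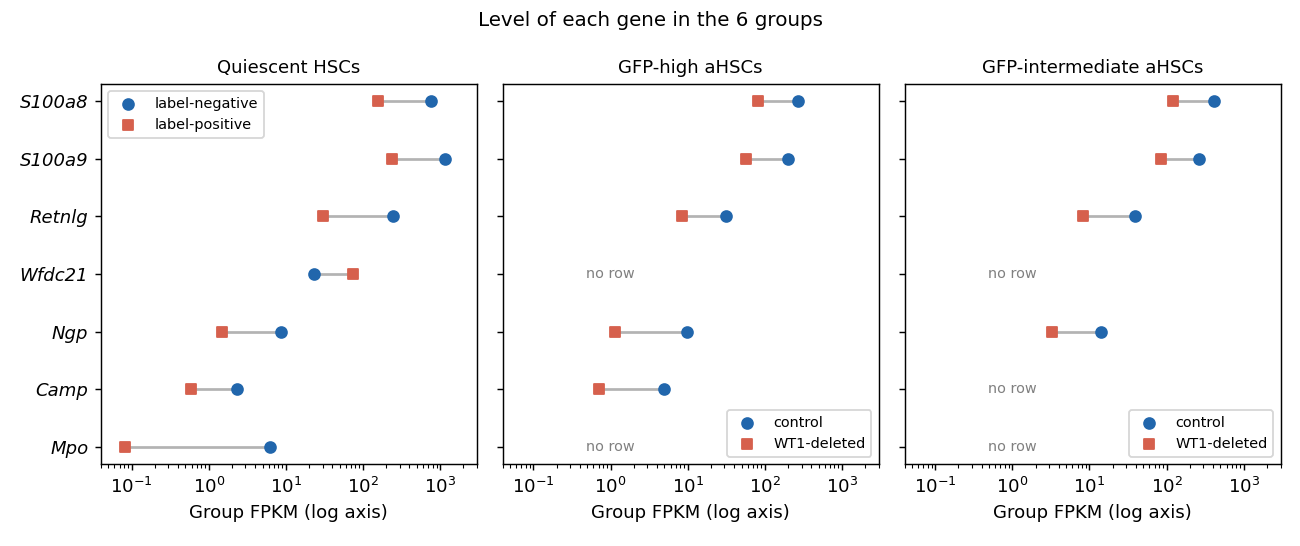
Group FPKM (log axis) of the 7 genes in the authors' deposited tables, for qHSCs (circles label-negative, squares label-positive) and for GFP-high and GFP-intermediate aHSCs (circles control, squares WT1-deleted); a point is a group value and has no error. Circles lie to the right of squares for every gene with a row except Wfdc21, which had 23.1 in label-negative against 74.0 in label-positive qHSCs.

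Other neutrophil genes had the same direction as the 6 members. Of 36 other genes in 5 lists (azurophil, specific and gelatinase granules, cytosolic and secreted proteins, and receptors) 22 had a row in qHSCs. All 22 were lower in label-positive cells, as were 2711 of the 5584 rows above 0 in both groups. The 22 genes had a median log2 ratio of -2.23 and a range from -3.96 to -1.11. The lists were drawn up with earlier results of these data known.

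Among specific granule genes all 5 had a row. Chil3, which encodes a chitinase-like protein also made by macrophages, had an FPKM of 81.4 in label-negative against 5.24 in label-positive qHSCs. The iron-binding proteins of this granule were closer to Ngp in log2 ratio. Ltf, lactoferrin, had 12.2 and 2.36, and Lcn2, lipocalin 2, had 36.4 and 9.19. Cd177 had 12.1 and 1.07, and Olfm4, below 1 in both groups, had 0.924 and 0.381. Of the 5 other genes on the azurophil list, not all of which encode granule proteins, only Prss57 had a row, at 0.745 and 0.292. Elane, Prtn3 and Ctsg, the genes of the serine proteases elastase, proteinase 3 and cathepsin G, and Ms4a3 had no row.

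Of 5 gelatinase granule genes 4 had a row. Mmp9, gelatinase B, had an FPKM of 58.0 in label-negative against 10.8 in label-positive qHSCs, and Mmp8, neutrophil collagenase, had 17.9 and 2.33. Adam8 had 37.4 and 6.52, and Mmp25 had 2.07 and 0.381. The 4 log2 ratios lay between -2.94 and -2.43.

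Of 12 receptor genes 9 had a row. Csf3r, the receptor of granulocyte colony-stimulating factor, had an FPKM of 129 and 30.6 in label-negative and label-positive qHSCs. Clec4e, a lectin receptor, had 86.6 and 17.9, and Il1r2, the decoy interleukin-1 receptor, had 58.6 and 12.9. Clec4d, a related lectin receptor, had 50.8 and 10.7. Cxcr2, the receptor that draws neutrophils to CXC chemokines, had 33.1 and 8.32. Ly6g, the surface antigen used to define mouse neutrophils, had no row. Among cytosolic and secreted proteins, 3 of 9 had a row. Slpi had 186 and 85.9, Pglyrp1 had 58.2 and 10.2, and Stfa2l1 had 11.6 and 2.51.

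The transcription factors of granulocyte formation were split, although all 6 had a row. Gfi1, a repressor needed for neutrophil formation and also used in lymphocytes, had an FPKM of 7.70 in label-negative against 0.409 in label-positive qHSCs. Cebpe, which drives specific granule genes, was below 1 in both groups, at 0.746 and 0.208. Spi1, the gene of PU.1, had 79.5 and 22.7, and Cebpb had 233 and 95.0. Cebpa, with 20.2 and 39.5, and Cebpd, with 46.6 and 94.1, were higher in label-positive cells.

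Of 5 receptor and co-receptor genes of calprotectin 4 had a row in qHSCs, 3 of them higher and 1 lower in label-positive cells. Tlr4 had an FPKM of 9.38 in label-negative against 15.3 in label-positive cells, its co-receptor gene Ly96 had 26.5 and 62.8, and Bsg had 105 and 164. Cd14, a co-receptor abundant in monocytes, had 164 and 70.9, the direction of S100a8 and S100a9, and Ager had no row. Of the other alarmins Il1a had 82.1 and 308 and Il33 had 3.05 and 6.48, both higher in label-positive cells, and Hmgb1 had no row.

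Of 15 other S100 genes 6 had a row in qHSCs, and they divided evenly. S100a4, S100a6 and S100a11 were lower in label-positive cells. S100a6 had an FPKM of 302 and 50.0, S100a11 had 267 and 90.1, and S100a4 had 151 and 12.9. S100a1, S100a13 and S100a16 were higher, with S100a1 at 44.0 and 122 and S100a16 at 58.7 and 158. The lists of other resistin-like genes, other haem peroxidase genes and 9 other Wfdc genes had 0 rows in qHSCs, and Slpi, given above, is a further WAP domain gene.

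Markers of other cells moved in the same comparison. The summed FPKM of the 22 other neutrophil genes was 1093 in label-negative against 252 in label-positive qHSCs. That of 5 monocyte genes of 6 with a row was 517 and 56.4, that of 7 T and NK cell genes of 7 was 665 and 25.8, and that of 4 B cell genes of 4 was 435 and 9.01. Eosinophil genes, 5 of 6, summed to 21.8 and 5.62, dendritic cell genes, 4 of 4, to 77.0 and 14.3, and basophil and mast cell genes, 5 of 6, to 30.3 and 1.64. Macrophage genes, 10 of 12, had a higher sum in label-positive cells, at 1522 against 572, with 9 of the 10 higher. Mrc1 gave the largest part of both sums, at 791 and 268. Sinusoidal endothelial genes, 4 of 4, summed to 1631 and 4580, and hepatocyte genes, 4 of 4, to 161 and 957. No gene of these lists with a row was listed at 0 in either group. Their part in the difference of the 7 members was not tested.

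Of 11 HSC genes 5 had a row in qHSCs, which says nothing of the level of the others. Pdgfrb, the receptor gene used to mark HSCs, had an FPKM of 0.905 in label-negative against 0.370 in label-positive cells, far below S100a8 and S100a9. Dcn had 109 and 49.0. Col1a1 had 7.28 and 2.63. Rgs5, with 0.750 and 3.29, and Colec11, with 0.221 and 0.882, went the other way, so 3 of the 5 were lower and 2 higher in label-positive cells. Lrat, Des and Reln had no row, so their levels cannot be read here.

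**Figure D2:**
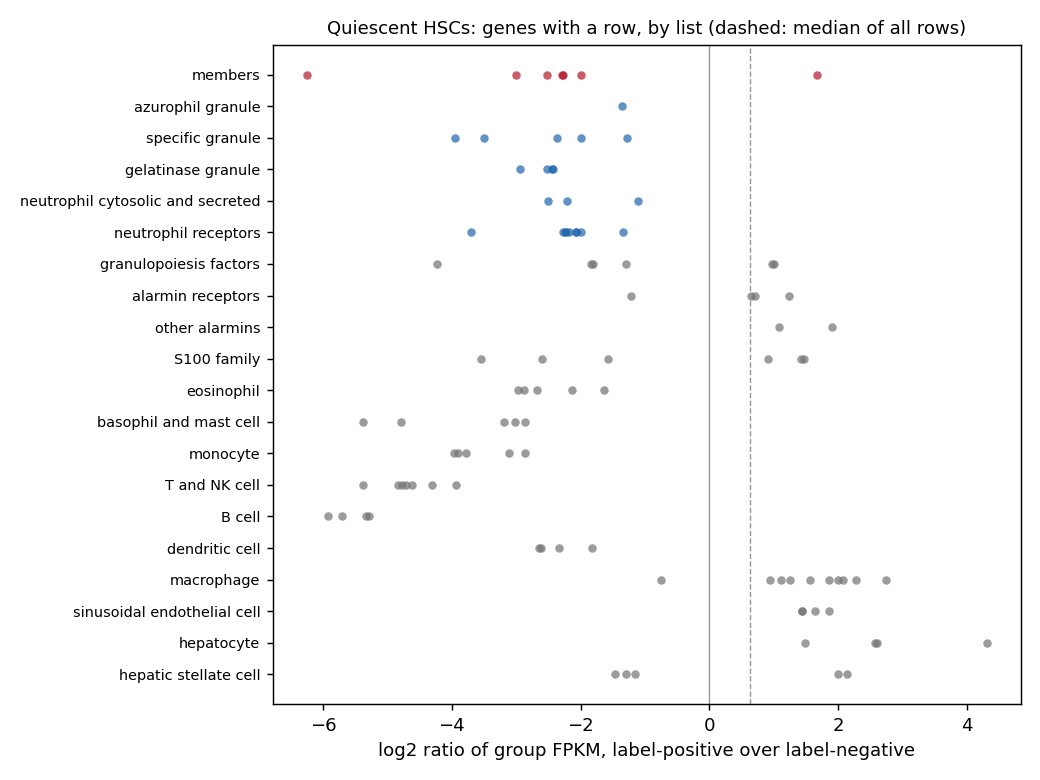
Log2 ratio of group FPKM in qHSCs, label-positive over label-negative, 1 point for each gene with a row, by list: the members (red), other neutrophil genes (blue) and other genes (grey). The solid line is at 0 and the dashed line at 0.64, the median of all rows above 0 in both groups. Every blue point lies left of 0, and Wfdc21 is the red point on the right.

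In GFP-high aHSCs 5 members had a row, and all 5 were lower after WT1 deletion. S100a8 had an FPKM of 268 in control against 81.1 in WT1-deleted cells, with a log2 ratio of -1.72. S100a9 had 203 and 57.4, a log2 ratio of -1.82. Retnlg had 31.6 and 8.49, a log2 ratio of -1.90. These 3 genes thus differed between the groups by 3.30-fold to 3.72-fold.

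The specific granule genes had larger log2 ratios in the same fraction, at levels near or below 1 after deletion. Ngp had an FPKM of 9.91 in control against 1.15 in WT1-deleted cells, with a log2 ratio of -3.11 and an 8.63-fold difference. Camp had 4.93 and 0.719, a log2 ratio of -2.78. Of the 36 other neutrophil genes only Ltf, a further specific granule gene, had a row, at 3.33 and 0.392, a log2 ratio of -3.09. With a pseudocount of 1 the log2 ratio was -1.79 for Camp and -2.34 for Ngp, against -1.71 for S100a8, -1.80 for S100a9 and -1.78 for Retnlg, so the larger ratio of Camp was not kept. Ltf, at 0.392 after deletion, was not run with a pseudocount, so whether its larger ratio would be kept is not known. Without values per sample, whether the ratios of Ngp, Camp and Ltf exceed those of S100a8, S100a9 and Retnlg by more than the spread between animals cannot be said. Mpo and Wfdc21 had no row.

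The 5 members were all at least 2-fold lower, as were 24.8% of the 113 rows above 0 in both groups, that is 28 rows. The other 85 rows were all at least 2-fold higher. Every lower row was thus also 2-fold lower, and the 2-fold count adds nothing to the direction. Their median log2 ratio was -1.90, against 1.82 for these 113 rows. The 118 rows at 0 in 1 group were left out of both. With a pseudocount of 1, which brings them in, the median over rows was 0.63 and 40.3% were at least 2-fold lower. Among the 113 rows, without those at 0, they ranked by log2 ratio 5th (Ngp), 7th (Camp), 12th (Retnlg), 13th (S100a9) and 14th (S100a8) from the lowest. In this fraction the lists of monocyte, macrophage, T and NK cell, B cell, eosinophil, dendritic cell, endothelial, hepatocyte and HSC genes had 0 rows. The 1 marker of another blood lineage with a row was Pf4, a platelet chemokine also made by liver macrophages, which was higher after deletion, at 23.1 and 65.6.

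In GFP-intermediate aHSCs 4 members had a row, again all lower after WT1 deletion, with 2 samples in each group. S100a8 had an FPKM of 412 in control against 123 in WT1-deleted cells, with a log2 ratio of -1.75. S100a9 had 260 and 84.5, a log2 ratio of -1.62. In control cells they ranked 11th and 24th by FPKM among 568 rows. Retnlg had 39.2 and 8.24, a log2 ratio of -2.25, and Ngp had 13.9 and 3.24, a log2 ratio of -2.11. Camp, Mpo and Wfdc21 had no row.

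All 4 were at least 2-fold lower, but so were 61.6% of the 383 rows above 0 in both groups. The other 38.4% were all at least 2-fold higher, so here too the 2-fold count adds nothing to the direction. Their median log2 ratio was -1.93 and that of the 383 rows -1.33. S100a9 and S100a8 stood 117th and 95th from the lowest log2 ratio, well within the body of the table, and Ngp and Retnlg stood 53rd and 38th.

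Of the 36 other neutrophil genes 4 had a row in this fraction. All 4 were lower after deletion, as were 61.6% of the 383 rows above 0 in both groups. Ltf had an FPKM of 3.56 in control against 0.672 in WT1-deleted cells, and Mmp9 had 20.7 and 7.30. Adam8, with 265 and 53.6, and Clec4d, with 185 and 71.2, are also expressed by macrophages. Il1a was lower after deletion, at 59.0 and 13.3. Among the factors of granulocyte formation Cebpa had 79.5 and 24.2 and Cebpd had 38.7 and 118.

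Macrophage genes moved with the members in GFP-intermediate cells. Of 12 macrophage genes 9 were named in 8 rows, C1qb and C1qc sharing 1. All 8 rows were lower after deletion, as were 61.6% of the 383 rows above 0 in both groups. The summed FPKM of the 8 rows was 3146 in control against 728 in WT1-deleted cells, with none at 0. C1qa, of the complement C1q complex, had an FPKM of 609 and 121, and the row of C1qb and C1qc had 1463 and 284. The Kupffer cell genes Clec4f, with 174 and 43.8, Vsig4, with 89.4 and 18.5, Cd5l, with 297 and 79.0, and Marco, with 209 and 72.2, had log2 ratios between -2.27 and -1.53. Csf1r, the receptor of macrophage colony-stimulating factor, had 269 and 100.2, and Mrc1, the mannose receptor, had 36.1 and 9.88. Pf4 had 209 and 27.5, opposite in direction to GFP-high cells. Cx3cr1, of the monocyte list, had 35.5 and 14.9, and Ear2, of the eosinophil list, had 134 and 53.1. The part of these cells in the lower neutrophil transcripts was not tested. Lymphocyte, endothelial and hepatocyte lists had 0 rows, and of the HSC list Rgs5, with 1.41 and 8.20, and Colec11, with 2.92 and 10.7, were higher after deletion.

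**Figure D3:**
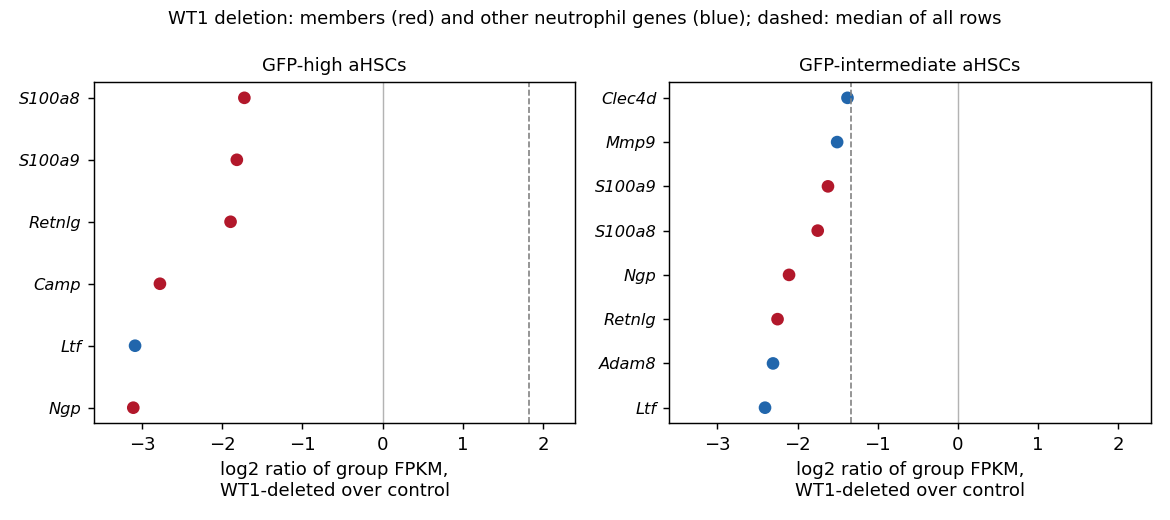
Log2 ratio of group FPKM, WT1-deleted over control, in GFP-high and GFP-intermediate aHSCs, for the members (red) and the other neutrophil genes (blue) that have a row. Dashed lines mark the median of all rows above 0 in both groups, 1.82 and -1.33. All points lie left of 0, between -3.11 and -1.72 in GFP-high cells and between -2.40 and -1.38 in GFP-intermediate cells.

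Because every table came from a comparison of its own, levels were compared between tables only as ratios of genes within a group. S100a9 was at 152% of the FPKM of S100a8 in label-negative and 150% in label-positive qHSCs. In aHSCs it was below S100a8 in every group, at 75.6% and 70.8% in control and WT1-deleted GFP-high cells and at 63.0% and 68.8% in GFP-intermediate cells. The order of the pair was thus opposite in quiescent and activated cells, while within each table the ratio differed little between the groups. Quiescent and activated cells came from different lines and tables, so injury, line and processing cannot be told apart.

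Retnlg was at 32.1% and 19.3% of S100a8 in label-negative and label-positive qHSCs. It was lower relative to S100a8 in aHSCs, at 11.8% and 10.47% in control and WT1-deleted GFP-high cells and at 9.50% and 6.71% in GFP-intermediate cells. Ngp ran the other way. It was at 1.13% and 0.953% of S100a8 in the qHSC fractions and at 3.70% and 3.38% in the GFP-high and GFP-intermediate controls, and after WT1 deletion it was at 1.42% and 2.64%. Camp was at 0.307% and 0.371% of S100a8 in qHSCs and at 1.84% and 0.886% in control and WT1-deleted GFP-high cells. Wfdc21 was at 3.06% of S100a8 in label-negative and 47.0% in label-positive qHSCs, the widest shift of the set together with Mpo, at 0.816% and 0.0516%. S100a8 and S100a9 together made up 78.7% to 94.8% of the summed FPKM of the members with a row in the 6 groups.

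**Figure D4:**
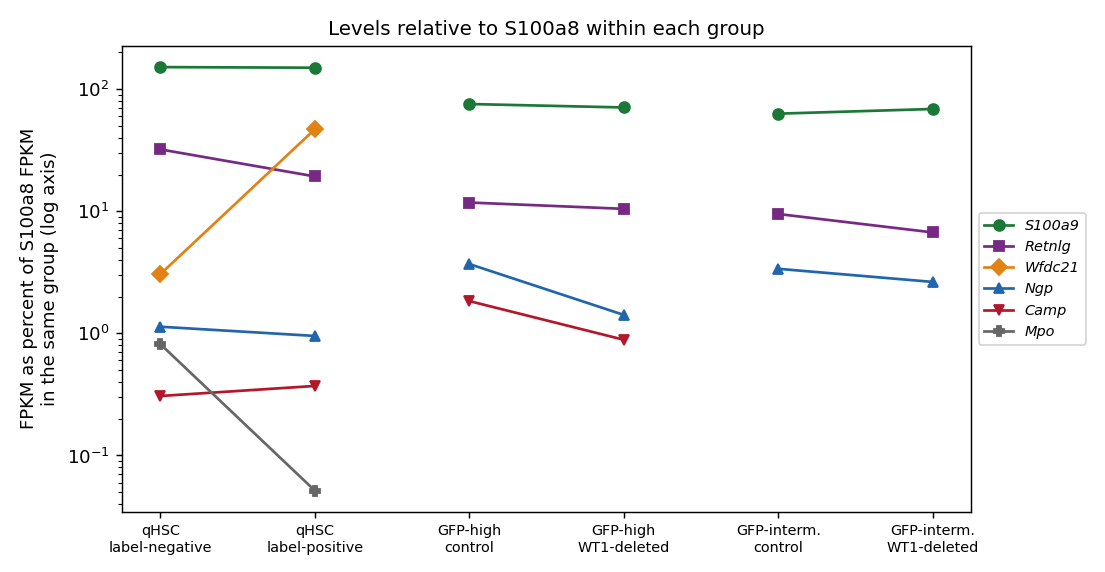
FPKM of each gene as a percentage of the S100a8 FPKM of the same group (log axis), for the 6 groups; lines join the groups of a table, and points are group values with no error. S100a9 lies above 100% in both qHSC groups and between 63.0% and 75.6% in the aHSC groups, whereas Wfdc21 climbs from 3.06% to 47.0% and Mpo falls from 0.816% to 0.0516% between the qHSC groups.

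Rows with values like those of the members were sought in the WT1 deletion tables. Of 46 rows above 0 in all 4 aHSC groups, 11 were lower after deletion in both fractions, and S100a8, S100a9, Retnlg and Ngp were 4 of these 11. Most animals gave cells to both fractions, so these are not independent results. Of the 5 other rows nearest to the median of the 4 members, by distance between their pairs of log2 ratios, 3 had a gene name. Irg1, which makes the antimicrobial metabolite itaconate in myeloid cells, had an FPKM of 24.3 in control against 8.71 in WT1-deleted GFP-high cells and of 40.3 and 13.8 in GFP-intermediate cells, a distance of 0.540. Niacr1, the niacin receptor, had 11.9 and 4.84 and then 15.3 and 5.41, a distance of 0.703. Ctse, cathepsin E, had 4.18 and 0.766 and then 4.85 and 0.977, a distance of 0.706. The members themselves lay 0.223 to 1.26 from their median.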

How the data were processed

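RNA of 16 sorted samples was sequenced on an Illumina HiSeq. Per the methods, the authors mapped reads with bowtie 2 and compared groups with Cuffdiff2, calling rows at an adjusted p-value below 0.05. The submitters' processing notes also name TopHat2 2.0.3, Cufflinks 2.0.1, DESeq2 and the builds mm9 and mm10, without roles. The authors deposited FPKM values, 1 per group and row, so depth and precision are unknown. Further tables hold their fold changes, p-values and q-values, which were not used. No column of values per sample was left unused (0).

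Rows were matched by symbol, and log2 ratios between both group FPKM were taken without a pseudocount. All rows above 0 in both groups served as background, with a 2-fold difference counted. No test was made. Members and lists were chosen with earlier results of these data known. Every member was named, with every listed gene that has a row in a deletion table and up to 5 per list in qHSCs. In qHSCs Cxcr2, Cebpe and S100a13, outside this rule, were named after their values were seen. Values of 1 listed receptor gene are not reported here. Code was tested on simulated data. Transcripts of other genes (GENCODE vM21) aligned with blastn 2.17.0 held 0 copies at least 97% identical over 90% of a member's transcript. Promoters were those of RefSeq (GRCm38.p6). The alternatives were pseudocounts of 1 and 0.1, an FPKM of at least 1, rows naming 1 gene and rows with a gene name, the last chosen after seeing the data. Python 3.11.15, pandas 2.3.3, numpy 2.4.6 and matplotlib 3.10.9 were used.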

Additional observations from a re-analysis of the deposited data

How the results depend on the processing

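No paired analysis was possible because the tables hold 1 value per group, although both qHSC fractions came from the same animals. For the same reason leaving out each replicate in turn was not run. A value was called moved where an alternative changed it by over 1.5-fold, and of 74 alternative values 8 moved and 0 reversed. A pseudocount cannot change the sign of a member's log2 ratio, and shares and counts have no sign. Only the medians over rows could thus have reversed, so the absence of reversals says nothing of the members. A pseudocount of 1 brought the log2 ratio of Mpo in qHSCs to -2.73 and that of Camp to -1.07, and in GFP-high aHSCs that of Ngp to -2.34 and of Camp to -1.79. A pseudocount of 0.1 brought Mpo to -5.11. With a pseudocount of 1, which brings in rows at 0, 40.3% of all GFP-high rows were at least 2-fold lower and 41.1% at least 2-fold higher, with a median log2 ratio of 0.63. The number of members at least 2-fold lower was the same with a pseudocount of 1. The FPKM minimum of 1 could not change it, because every member exceeded 1 in its higher group. The unknown depth limits the values below an FPKM of 1 most, those of Mpo and Camp.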
